A study of Mus musculus with 4 samples.

Results

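Smooth muscle cells were a small class of the aged mouse lung libraries, 129 of 68675 kept barcodes, or 0.188%. A kept barcode had at least 500 genes, at least 1000 unique molecular identifiers (UMIs, the count of distinct captured RNA molecules) and at most 10% mitochondrial UMIs. A member held at least 10 UMIs of Acta2 and at least 2 UMIs in at least 2 of the 4 genes Myh11, Cnn1, Actg2 and Des. It held no UMI of Ptprc (the CD45 gene of immune cells), Cdh5 (an endothelial cadherin) or Higd1b (a pericyte gene), and had a UMI in fewer than 3 of the 5 genes Hhip, Lgr6, Aspn, Cdh4 and Fgf18, which are high in airway muscle and myofibroblasts. The members were thus chosen on measured values, so the levels of these 13 genes are given as a description.

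The lungs came from male C57BL/6 mice, 19 months old at the start of treatment. They were given the small-molecule inhibitor BPTES, or DMSO as its vehicle, for 1 month, and each treatment had 2 libraries. Per the labels' protocols, tissue was digested with Liberase for 1 hour, and 20000 CD45-negative cells were mixed with 9000 CD45-positive cells per library, so the mix sets what share of barcodes any class can take. The labels give no number of animals per library and do not tie a replicate number to a litter, batch or day.

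Smooth muscle cells wrap the walls of airways and of pulmonary arteries and veins and set their calibre by contraction. Calcium entering the cell activates myosin light chain kinase, which lets smooth muscle myosin pull on actin, while cyclic GMP signalling relaxes the cell. Many contractile genes are driven by serum response factor (SRF) with its cofactor myocardin, which bind a short DNA element called the CArG box. Vascular muscle is known to depend on Notch3 signalling, and airway muscle on muscarinic acetylcholine receptors.

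The 250 bases before the annotated start were searched on the gene strand for the CArG box, a palindromic element that reads alike in form on both strands. It was present in 4 of the 22 contractile list genes with a promoter window in the RefSeq table (GRCm38.p6, 26 genes listed), or 18.2%, and in 1.62% of all 27025 genes. The 5 stretches of 60 bases below are those of the contractile list genes Myl9 (a regulatory light chain of myosin), Myl6 (its essential light chain), Vcl (vinculin, which anchors actin at the membrane) and Ldb3 (a Z-line protein), and of Actc1 (cardiac alpha actin), the leading gene of the class. They are shown because they hold a match to the element that SRF is known to bind, 4 in genes of the contractile list and 1 in the gene that leads the members. The CArG box is in capitals, and each is written 5′ to 3′ on the gene's strand.
Myl9, chr2:156775278-156775337, plus strand: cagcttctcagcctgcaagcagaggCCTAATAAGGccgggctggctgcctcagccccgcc
Myl6, chr10:128493025-128493084, minus strand: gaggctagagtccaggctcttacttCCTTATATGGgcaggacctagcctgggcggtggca
Vcl, chr14:20929148-20929207, plus strand: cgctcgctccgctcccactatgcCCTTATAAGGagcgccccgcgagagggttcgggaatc
Ldb3, chr14:34588682-34588741, minus strand: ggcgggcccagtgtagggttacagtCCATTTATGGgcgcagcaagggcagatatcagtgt
Actc1, chr2:114052888-114052947, minus strand: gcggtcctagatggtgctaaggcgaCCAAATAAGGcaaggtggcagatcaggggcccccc
The first base of the element lay 161, 50, 227, 35 (109 from a second annotated Ldb3 start) and 47 bases before the start of Myl9, Myl6, Vcl, Ldb3 and Actc1. A match is a stretch of letters and not a measured binding site.

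The total UMI count was 289575999 in BPTES replicate 1, 315719662 in BPTES replicate 2, 260346570 in DMSO replicate 1 and 342107092 in DMSO replicate 2. They gave 25 and 55 smooth muscle cells with BPTES and 22 and 27 with DMSO. Members of the BPTES libraries had medians of 20916 and 20849 UMIs per cell, and those of the DMSO libraries 13888 and 18030, and the summed member counts were 513367, 1210801, 377488 and 504053 UMIs in the same order. Pairs of libraries shared 65 to 104 kept barcodes, and 0 member barcodes. Near the Acta2 threshold, 4, 1, 7 and 6 cells per library that met the other clauses had 5 to 9 UMIs and were outside, and 2, 1, 4 and 1 members had 10 to 14 UMIs. The limit on airway genes removed more cells than it left: of 336 cells that passed every other clause, it set aside 207 (61.6%). These 207 cells, 50, 46, 54 and 57 per library, are referred to as the set-aside cells, and 491 pericytes (2 or more UMIs of Higd1b, 1 or more of Cox4i2, none of Ptprc or Cdh5) serve as the nearest mural class.

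Levels of muscle genes in the members are given as plain CPM, the UMIs of a gene summed over the cells and divided by the sum over all genes. This scale makes no allowance for gene length, which counts of the 3′ end do not follow. Acta2 and Myh11 helped to choose the members, so their levels describe the class and are no support for its label. Acta2, smooth muscle actin, was at 9368 and 9176 CPM with BPTES and at 3743 and 8551 with DMSO, against 305 to 703 CPM in pericytes. Myh11, the smooth muscle myosin heavy chain, was at 5067, 4811, 2917 and 4984 CPM in the same order. DMSO replicate 1 was the low library for both genes. Tagln, an actin-binding protein of smooth muscle that the rule did not use, stood at 6216, 6083, 2718 and 5991 CPM in the members, 3128 to 3977 CPM in the set-aside cells and 304 to 518 CPM in pericytes. Myl9 was at 2244, 2324, 1089 and 2172 CPM in the members and at 628 to 934 CPM in the set-aside cells. Myocd, the gene of myocardin, was at 480 to 799 CPM in the members, 484 to 834 CPM in the set-aside cells and 13.2 to 26.2 CPM in pericytes, so its range in the members overlapped that of the set-aside cells and lay above that of pericytes.

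The genes that led the members over all other kept barcodes, ranked by the smallest of the 4 within-library ratios, were Actc1, Cnn1, Myh11, Stac, Ctnna3, Acta2, Actg2, Lmod1, Myocd and Myom1. Of these, Cnn1, Myh11, Acta2 and Actg2 are genes that chose the members. Lmod1 is a leiomodin that nucleates actin filaments, and Ctnna3 is an alpha catenin. Actc1 was at 1954, 1614, 593 and 1182 CPM in the members, 140 to 521 CPM in the set-aside cells and 0 to 25.4 CPM in pericytes. Of the 8 fixed markers of the cardiomyocytes that sheathe pulmonary veins, 3 were at 0 in the members. Of these, Myh6 is the atrial and adult heart myosin and Myl7 the atrial light chain. Tnnt2, cardiac troponin T, was present at 27.3, 116, 29.1 and 27.8 CPM, against 0 to 0.422 CPM in pericytes and 3.58 to 29.9 CPM in the set-aside cells. An actin gene named for the heart was therefore high in cells with no UMI of Myh6.

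Over the set-aside cells, by the same ranking, the members were led by Heyl, Aoc3, Chrdl1, Prss23 and Ccnd2. Aoc3, an amine oxidase of vascular muscle also called vascular adhesion protein, was at 156, 173, 66.2 and 161 CPM in the members, 8.95 to 23.9 CPM in the set-aside cells and 12.0 to 23.9 CPM in pericytes. Npy1r, a receptor of the vasoconstrictor neuropeptide Y, was at 127, 90.0, 47.7 and 155 CPM, against 5.80 to 26.7 and 2.96 to 12.2 CPM. Both genes were highest in the members in each library. Eln, the gene of elastin, which gives arteries their recoil, was at 1346, 1005, 1531 and 1609 CPM in the members, 568.6 to 858 CPM in the set-aside cells and 121 to 204 CPM in pericytes. Over pericytes the lead was taken by Pcdh7, a protocadherin, at 1739, 2007, 723 and 1887 CPM against 0.795 to 12.2 CPM.

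Vascular signs were read first. Notch3, the receptor of mural cells, had a UMI in 106 of 129 members (82.2%), in 15.5% of the set-aside cells and in 98.2% of pericytes. In immune barcodes, which should lack it and whose median depth was 15000 to 17210 UMIs per library, the share was 1.45% to 2.00%. With each cell thinned to 5000 UMIs and 7 shallower members left out, the shares for Notch3 were 68.0% of 122 members, 7.73% of set-aside cells and 98.9% of pericytes. Heyl, a transcriptional target of Notch signalling, was found in 41.8%, 2.90% and 60.3% of the thinned cells in the same order, against 73.6%, 8.70% and 85.3% before thinning. The members thus lay between the set-aside cells and the pericytes for both genes of this pathway. Because the limit on airway genes separates members from set-aside cells, these differences describe the classes and were not tested.

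Other vascular genes divided by type. Map3k7cl, a vascular muscle gene, was detected in 39.3% of thinned members, 7.73% of thinned set-aside cells and 1.31% of thinned pericytes, and before thinning in 58.9%, 14.98% and 3.46%. Ntf3, the gene of neurotrophin 3, followed the same order at 27.1%, 8.70% and 0.218%, and before thinning at 49.6%, 21.3% and 1.22%. Both were therefore more frequent in members than in pericytes, unlike Notch3. Mustn1, a small muscle nuclear protein, did not separate the muscle classes, at 922 to 1888 CPM in the members and 1532 to 1651 CPM in the set-aside cells. Gja5, the arterial connexin 40, was near 0 at 0, 4.96, 0 and 1.98 CPM, and its share of members with a UMI, 3.88%, was near the 2.98% to 3.80% of immune barcodes and reads as background. Kcnj8 and Abcc9, the subunits of the vascular potassium channel that ATP closes, ran the other way: Abcc9 was at 170 to 343 CPM in the members and 376 to 513 CPM in the set-aside cells, and Kcnj8 at 19.5 to 79.5 and 155 to 262 CPM.

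Airway signs were mixed. Chrm2, the M2 muscarinic receptor, was at 77.9, 13.2, 37.1 and 35.7 CPM in the members and 115 to 220 CPM in the set-aside cells. It had a UMI in 10.1% of members, 58.0% of set-aside cells and 2.38% to 4.29% of immune barcodes, and in 4.92% of thinned members against 31.4% of thinned set-aside cells. Few members held it, with 32 of 40 UMIs of BPTES replicate 1 and 13 of 14 of DMSO replicate 1 in 1 cell each, and its level was above that of all other kept barcodes in 2 of 4 libraries. Chrm3, the M3 receptor that triggers airway contraction, had UMIs in 4 of 129 members (3.10%), below its share of 5.58% to 6.40% in immune barcodes, and reads as background. Mapk4 was at 5.84 to 10.6 CPM in the members and 112 to 152 CPM in the set-aside cells. Hpse2, a heparanase homologue, was the exception, at 438, 294, 302 and 601 CPM in members, 487 to 955 CPM in set-aside cells and 0.422 to 4.87 CPM in pericytes. Its share of thinned members, 50.8%, was nearer that of set-aside cells, 70.5%, than that of pericytes, 0.218% (before thinning 55.0%, 83.6% and 1.02%). Among the 122 thinned members, 33 had Notch3 and no airway list gene, 16 an airway list gene and no Notch3, 50 both and 23 neither. Of the 207 thinned set-aside cells, 3, 170, 13 and 21 fell into these classes. In the members the airway list gene was mostly Hpse2, found in 62 of the 122 thinned cells. Chrm2 was found in 6, Mapk4 in 6, Chrm3 in 3 and Nog in 1, so the split was largely between Notch3 and Hpse2. Of the 5 genes of the airway limit, 60 of the 129 members held 1 and 50 held 2. The smooth muscle class was therefore mixed by these signs, with Notch3 in most cells and Hpse2 in 71 of 129.

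**Figure D1:**
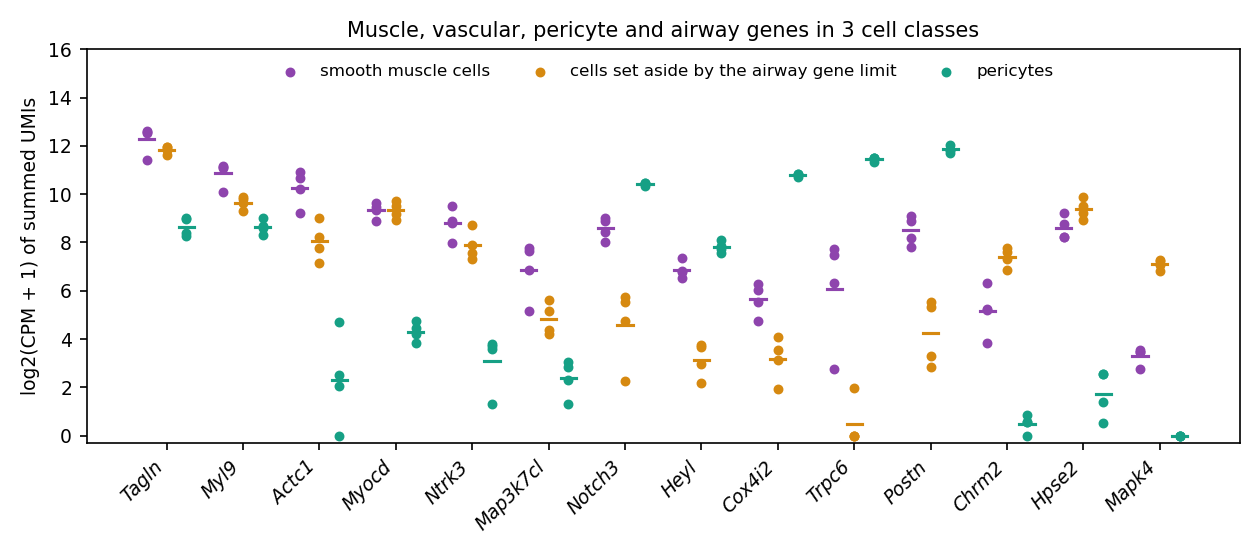
Levels of muscle genes, vascular genes, pericyte genes and airway genes as log2(CPM + 1) of summed UMIs (vertical axis) in smooth muscle cells, set-aside cells and pericytes. Each point is 1 of the 4 libraries and each short line their mean. Notch3 and Heyl of the members lie between the other classes, the mean levels of Actc1 and Map3k7cl are highest in the members, and Cox4i2, Trpc6 and Postn are highest in pericytes.

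Signs of other cell types were not evenly spread over the libraries. Of the members, 22 had at least 2 UMIs in at least 2 of the pericyte genes Cox4i2, Vtn, Trpc6 and Ndufa4l2. By the same measure 11 had genes of adventitial fibroblasts (Pi16, Dcn, Serpinf1 and Cd34) and 1 had genes of the mesothelium (Msln, Upk3b, Lrrn4 and Wt1). Any of these signs was found in 32 of 129 members, 8, 13, 7 and 4 per library. Dcn, the fibroblast proteoglycan decorin, was at 281 and 1124 CPM with BPTES and at 3793 and 67.5 CPM with DMSO, so DMSO replicate 1 was highest. The summed level of the 8 adventitial genes was 1268, 2334, 5436 and 629 CPM in the same order. Wt1, a mesothelial gene, was at 0, 0, 191 and 0 CPM, all from 3 cells of DMSO replicate 1, and the mesothelial marker Msln was at 0 in the members. The summed level of the 9 pericyte genes was 1208, 604, 1129 and 936 CPM, against 11010 to 12930 CPM in pericytes, and Trpc6, a cation channel of pericytes, at 208, 5.78, 79.5 and 179 CPM, was lowest in BPTES replicate 2. The 8 immune genes summed to 69.4 to 91.6 CPM. The 8 epithelial genes summed to 296, 218, 87.4 and 228 CPM, with Epcam, the epithelial surface marker, at 0, and the 6 endothelial genes to 13.2 to 35.5 CPM.

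The members also differed in how complete their contractile set was, which follows from the rule and is described only. At least 3 of the 4 further contractile genes were present in 19 of 25 and 44 of 55 members with BPTES, and in 8 of 22 and 22 of 27 with DMSO. DMSO replicate 1 was the library in which most members had only 2 of them. In members with 3 or 4 of these genes Acta2 was at 10910, 10930, 7471 and 10390 CPM, and in members with 2 at 1783, 1942, 2036 and 1398 CPM. Actc1 followed the same division, at 2352, 1997, 1796 and 1486 CPM against 0, 29.7, 42.5 and 0 CPM. Notch3 did not, at 511, 250, 523 and 461 CPM against 575, 301, 263 and 495 CPM. Trpc6 was at 2.49 to 37.5 CPM in members with 3 or 4 genes, and at 1047, 0, 112 and 864 CPM in members with 2. Trpc6 was thus higher in members with 2 genes in each library but BPTES replicate 2. Pdgfrb, another of the pericyte genes, was higher in members with 2 genes in every library. It was at 506, 203.5, 224 and 514.4 CPM in them, against 175.9, 166.2, 202.4 and 137.1 CPM. Cox4i2 and Postn were higher in members with 2 genes in some libraries only. Cox4i2 was at 61.8 CPM in members with 2 and 67.5 CPM in the others in DMSO replicate 1. Postn was at 0 and 366.6 CPM in DMSO replicate 2. The gene lists below are therefore also given without DMSO replicate 1, and the part of these cells in the results was not tested.

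**Figure D2:**
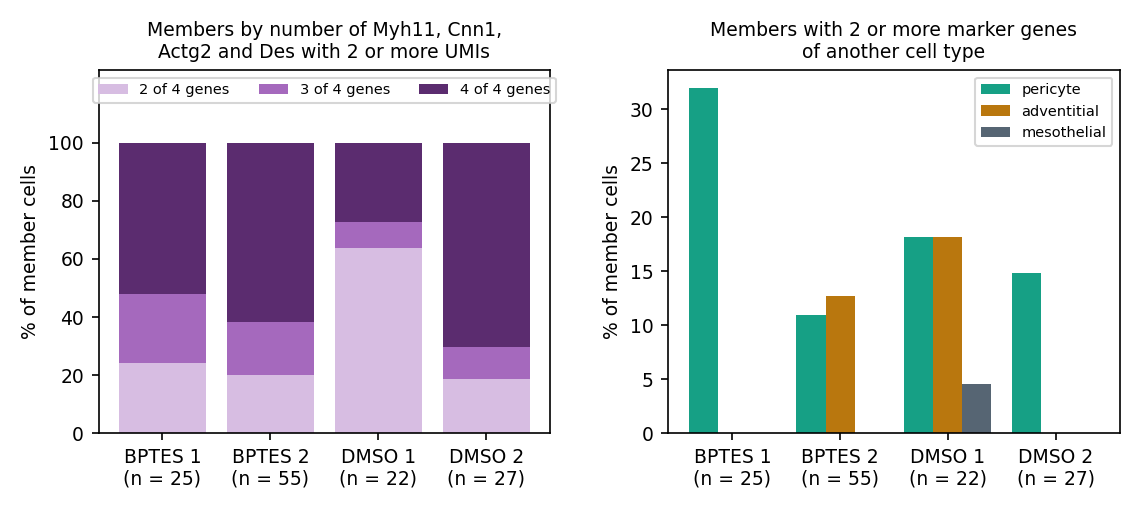
Make-up of the smooth muscle cells of each library, as % of members (vertical axes, n given under each library). Left, the number of the 4 further contractile genes with 2 or more UMIs. Right, the members with 2 or more marker genes of pericytes, adventitial fibroblasts or mesothelium. DMSO replicate 1 stands out, with 14 of its 22 members at 2 genes.

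The first treatment comparison asked whether smooth muscle cells took another share of the kept barcodes with BPTES. The share was 0.154% (exact 95% binomial interval, Clopper-Pearson, 0.09995% to 0.228%) and 0.332% (0.2499% to 0.431%) with BPTES, and 0.143% (0.0899% to 0.217%) and 0.131% (0.0866% to 0.191%) with DMSO. BPTES replicate 2 was high, and the other 3 libraries were alike within their counting intervals, which cover counting error only. The means were 0.243% ± 0.125 (SD, n = 2) and 0.137% ± 0.00844 (SD, n = 2), a ratio of 1.77. The groups did not overlap, and the two-sided exact permutation p was 0.333, the smallest that 2 libraries against 2 allow. Without members with pericyte, adventitial or mesothelial signs the groups overlapped (exact permutation p = 0.667), with a ratio of 1.71 that was 1.00 with BPTES replicate 1 alone. The ratio was 1.12 with BPTES replicate 1 alone and 2.41 with BPTES replicate 2 alone, so 1 library decided its size. With the set-aside cells added back the ratio was 1.19 and the groups overlapped, with an exact permutation p of 0.667. The set-aside cells alone took 0.293% ± 0.0223 (SD, n = 2) with BPTES and 0.315% ± 0.0526 (SD, n = 2) with DMSO. Pericytes took 0.800% ± 0.0999 and 0.636% ± 0.0235 (SD, n = 2), and did not overlap between groups (exact permutation p = 0.333). The number of these cells in the lung and their yield in dissociation cannot be told apart.

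**Figure D3:**
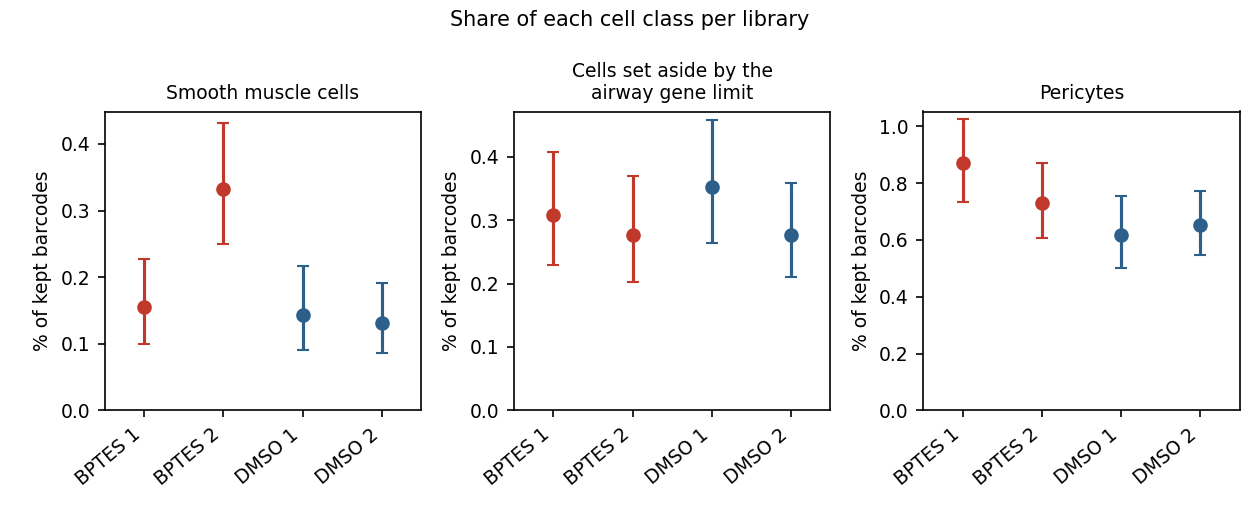
Share of kept barcodes (%, vertical axis) that were smooth muscle cells, set-aside cells or pericytes in each library, with exact 95% binomial intervals as bars. BPTES replicate 2 is the high library for smooth muscle cells, at 0.332%, and is not high for the set-aside cells.

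The second comparison asked which genes differed with BPTES within smooth muscle cells. UMIs were summed per library, scaled by TMM (an adjustment of library size), and tested with edgeR's quasi-likelihood test over 7352 genes. From here on, CPM are TMM-scaled. At an adjusted p under 0.05, 0 genes were higher (0%) and 1 was lower (0.0136%), while 363 genes (4.94%) had an unadjusted p under 0.05. DESeq2, run on the same sums, called 5 genes (0.068%): Rgs16 and Smoc2 as lower, and Hspa1b, Hspa1a and Pcdh11x as higher. Without regard to a test, 1230 genes (16.7%) were higher and 1313 (17.9%) lower in both BPTES libraries than in both DMSO libraries, and 48.7% of genes had a log2 fold change above 0. These shares are the background for the gene groups below. In a fit without 1 library, the lone library of that treatment is assumed to vary like the other group. More genes were then called over the whole table: 0.917% without BPTES replicate 1, 0.688% without BPTES replicate 2, 1.21% without DMSO replicate 1 and 2.26% without DMSO replicate 2.

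The called gene was Rgs16, a regulator of G protein signalling that shortens the signal of receptors coupled to G proteins. It was at 8.10 and 9.72 CPM with BPTES and at 223 and 192 CPM with DMSO, a log2 fold change of -4.47 (SE 0.333, edgeR adjusted p = 0.00925). The groups did not overlap, but few cells held the RNA, with UMIs in 2 of 25 and 6 of 55 members with BPTES and in 2 of 22 and 3 of 27 with DMSO. In DMSO replicate 1, 79 of 80 UMIs came from 1 cell, and in DMSO replicate 2, 56 of 94 UMIs came from 1 cell. Without the richest cell of each library the levels were 2.03, 6.19, 2.79 and 77.7 CPM, and the groups overlapped. Rgs16 was called in none of the fits that kept only members with at least 3 of the 4 contractile genes or that dropped members with signs of other cell types, where it was too low to be tested. With the set-aside cells added its log2 fold change was -2.53 (edgeR adjusted p = 0.0970). In pericytes Rgs16 was also lower, at 11.8 and 12.5 plain CPM with BPTES and at 24.6 and 120 with DMSO. Its log2 fold change there was -2.62 (edgeR adjusted p = 0.963). In the set-aside cells alone it was at 9.65 and 15.3 plain CPM with BPTES and at 7.74 and 8.95 with DMSO.

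Heat shock genes were higher with BPTES as a group, with or without DMSO replicate 1, although the edgeR fit reported here called none. DESeq2 called 2, Hspa1b and Hspa1a. With no filter on low counts, edgeR called 4 of 17 on all 4 libraries, against 140 of 16284 genes tested. With Acta2 at 10 or more per 10000 UMIs it called 1 of 16, against 5 of 6893. Heat shock genes encode chaperones that hold and refold proteins. Of 17 on the list 16 were tested, and 15 had a log2 fold change above 0 with 9 (56.2%, against 16.7% of all genes) higher in both BPTES libraries than in both DMSO libraries. The median log2 fold change was 0.71, against -0.01 over all genes tested, and 8 of the 16 had an unadjusted p under 0.05. The median was 0.76 without DMSO replicate 1, 0.82 in members with at least 3 of the 4 contractile genes, and 0.31 without BPTES replicate 2, the library with the higher values.

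Hspa1b and Hspa1a, near-identical genes for the inducible chaperone HSP70 whose reads may be split between them, led the list. Hspa1b was at 456 and 925 CPM with BPTES and at 114 and 75.7 CPM with DMSO, a log2 fold change of 2.88 (SE 0.411, edgeR adjusted p = 0.287). Hspa1a was at 409, 1018, 109 and 180 CPM in the same order, a log2 fold change of 2.30 (SE 0.465, edgeR adjusted p = 0.743), and 1.49 without BPTES replicate 2. BPTES replicate 2 was highest for both, and the groups did not overlap. Unlike that of Rgs16, this RNA was spread over cells: Hspa1a had UMIs in 23 of 25 and 46 of 55 members with BPTES and in 12 of 22 and 20 of 27 with DMSO, and Hspa1b in 20, 41, 12 and 15. Without the richest cell of each library Hspa1b was at 294, 785, 78.2 and 59.3 CPM, still without overlap. DESeq2 called both genes, with adjusted p of 6.5e-07 for Hspa1b and 0.00261 for Hspa1a.

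Among the other chaperones, Hspb1, a small heat shock protein that binds actin filaments, was at 644 and 2719 CPM with BPTES and at 327 and 391 CPM with DMSO, a log2 fold change of 2.23 (SE 0.589, edgeR adjusted p = 0.915). Its size rested on BPTES replicate 2, and without that library it was 0.84. Hspa8, the constitutive HSP70, was at 810 and 1357 against 634 and 558 CPM, and Hsp90ab1, an HSP90 subunit gene, at 1149 and 1666 against 871 and 912 CPM. The groups did not overlap for either, with log2 fold changes of 0.87 and 0.66 (edgeR adjusted p = 0.945 for both). Without BPTES replicate 2 these were 0.45 and 0.37. Hspa5, the chaperone of the endoplasmic reticulum, overlapped at 474, 1220, 894 and 583 CPM. Hspd1, the mitochondrial chaperonin, was at 144 and 257 against 109 and 102 CPM, without overlap, a log2 fold change of 0.94 (SE 0.333, edgeR adjusted p = 0.945), and 0.45 without BPTES replicate 2.

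In other cells too, Hspa1b and Hspa1a were high in BPTES replicate 2, as plain CPM. Hspa1b was at 69.5 and 152 CPM with BPTES and 59.0 and 48.4 with DMSO in set-aside cells, at 40.5 and 134 against 35.8 and 55.5 CPM in pericytes, and at 16.5 and 42.3 against 14.9 and 13.2 CPM in all remaining kept barcodes. Hspa1a was at 141 and 233 against 108 and 114 CPM in pericytes. Hspa1b was higher in the members than in these other cells in every library, and BPTES replicate 2 was the highest library in each of these classes. The treatment difference in members minus that in pericytes, on the log2 scale, was 2.12 for Hspa1b (edgeR adjusted p = 1) and 1.51 for Hspa1a (edgeR adjusted p = 1). Of 10737 genes tested for such a difference of effects 0 (0%) passed, with 333 (3.10%) at an unadjusted p under 0.05. In pericytes alone, 0 of 10680 genes passed, and 466 (4.36%) had an unadjusted p under 0.05.

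**Figure D4:**
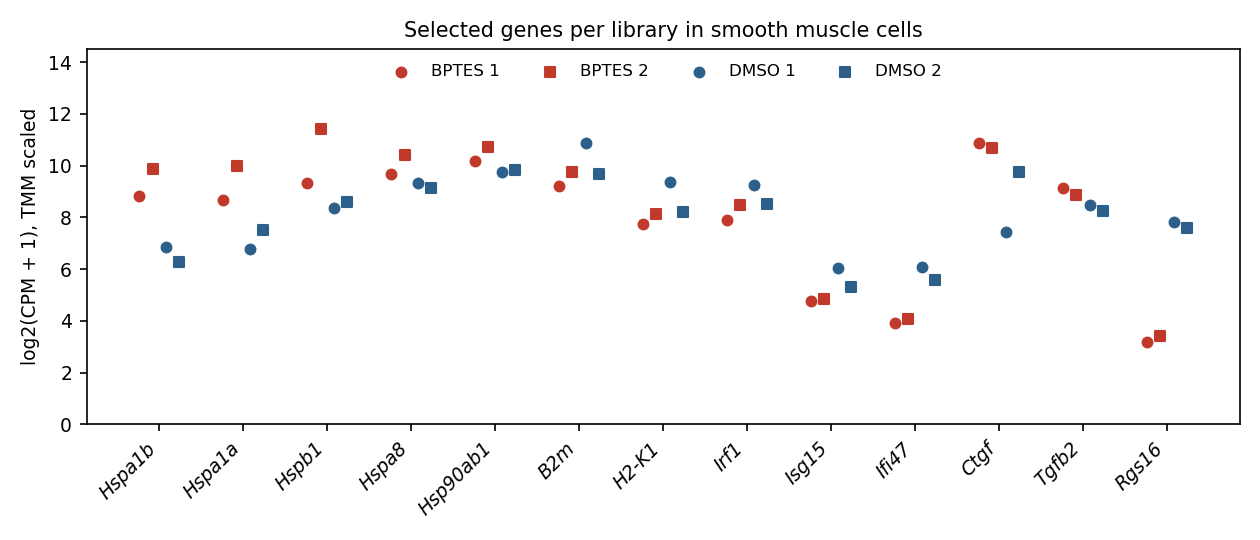
Levels of 13 genes in smooth muscle cells as log2(TMM-scaled CPM + 1) (vertical axis), 1 point per library, red for BPTES and blue for DMSO, circles for replicate 1 and squares for replicate 2. The heat shock genes at the left are higher in both BPTES libraries, DMSO replicate 1 is the highest library for B2m, H2-K1, Irf1, Isg15 and Ifi47, and Rgs16 at the right is high in both DMSO libraries.

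Interferon response genes were lower with BPTES as a group, and neither the edgeR fit reported here nor DESeq2 called one. With no filter on low counts, edgeR called 4 of 32 on all 4 libraries, against 140 of 16284 genes tested. Interferon response genes are switched on by interferons through STAT and IRF factors. Of the 22 tested (of 32 on the list), 20 had a log2 fold change below 0, and 14 (63.6%, against 17.9% of all genes) were lower in both BPTES libraries than in both DMSO libraries. The median was -0.74, and 5 genes had an unadjusted p under 0.05. Without DMSO replicate 1 the median was -0.36, with 21 of 23 genes below 0 and 0 called, and without DMSO replicate 2 it was -0.98 with 4 of 23 called, against 2.26% of all genes. It was -0.46 both without BPTES replicate 1 and in members with at least 3 of the 4 contractile genes, where 16 of 20 were below 0. With the set-aside cells added it was -0.01, with 14 of 27 below 0. The group difference was thus found in the members as defined and not with the airway gene limit lifted. In pericytes 8 of 26 tested genes of the list were higher, with a median of -0.20. A lower median was therefore not particular to the members.

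Single interferon genes show where the values lie. Ifi47, an interferon-induced GTPase, was at 14.2 and 15.9 CPM with BPTES and at 67.0 and 47.0 CPM with DMSO, a log2 fold change of -1.87 (SE 0.393, edgeR adjusted p = 0.770). Iigp1, another such GTPase, was at 93.2, 134, 279 and 213 CPM, and Rtp4 at 10.1, 7.07, 50.3 and 24.6 CPM, in the same order of libraries. The groups did not overlap for these 3 genes, but 9 of the 12 Rtp4 UMIs of DMSO replicate 2 came from 1 cell. Without the richest cell of each library Rtp4 was at 6.08, 4.42, 27.9 and 6.14 CPM. Isg15, a ubiquitin-like protein, was at 26.3, 27.4, 64.2 and 38.9 CPM and had a log2 fold change of -0.90, which was -0.52 without DMSO replicate 1 and turned to 1.41 with the set-aside cells added. Of its UMIs in DMSO replicate 2, 13 of 19 came from 1 cell. Without the richest cell of each library Isg15 was at 12.2, 23.9, 39.1 and 12.3 CPM, and the groups overlapped. Of the antigen presentation genes, H2-K1 (an MHC class I heavy chain) was at 215, 281, 668 and 295 CPM, and B2m (the light chain of MHC class I) at 598, 860, 1860 and 818 CPM. H2-D1 was at 223, 366, 654 and 325 CPM and the transcription factor Irf1 at 239, 354, 600 and 366 CPM. DMSO replicate 1 was the high library for these 4, and B2m and H2-D1 overlapped between groups. H2-K1 and Irf1 overlapped too without the richest cell of each library. In the set-aside cells alone, as plain CPM, BPTES replicate 1 was the highest library for Isg15, Iigp1, Rtp4 and Ifi47. Isg15 was at 160 CPM in that library and at 13.5 to 22.9 CPM in the others. There B2m, H2-K1 and H2-D1 overlapped between groups, and Irf1 was lower in both BPTES libraries, at 264 and 224 against 390 and 326 CPM. In all other kept barcodes Iigp1 and Irf1 were lower in both BPTES libraries, and so by little were H2-K1 and Isg15. Ifi47, Rtp4, B2m and H2-D1 overlapped there.

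Contractile genes were all on the higher side with BPTES, and in the members this hung on 1 library. Of 26 genes, 26 had a log2 fold change above 0, with a median of 0.35, but 5 of them chose the members. Of the 21 that the rule did not use, 21 were above 0 and 9 (42.9%, against 16.7% of all genes) did not overlap between groups. Their median was 0.34, and neither edgeR nor DESeq2 called one with all 4 libraries. Tagln was at 6465 and 6509 CPM with BPTES and at 2865 and 6178 CPM with DMSO, and Myl6 at 3892, 4011, 1972 and 3466 CPM. Both were low in DMSO replicate 1, the library whose members held the least complete contractile set. Without that library, 9 of the 21 genes were above 0 and their median was -0.005. Without DMSO replicate 2, which leaves it as the only DMSO library, their median was 0.88 and 7 of 21 were called, against 2.26% of all genes. In members with at least 3 of the 4 contractile genes 15 of the 21 were above 0, with a median of 0.16. With the set-aside cells added 20 of the 21 were above 0, with a median of 0.44. In the set-aside cells alone, as plain CPM, Tagln was at 3931, 3977, 3598 and 3128 and Myl6 at 2138, 2369, 1889 and 1689. DMSO replicate 2 was the lowest library for both there. In pericytes 20 of 24 tested genes of the whole list were above 0, with a median of 0.24.

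**Figure D5:**
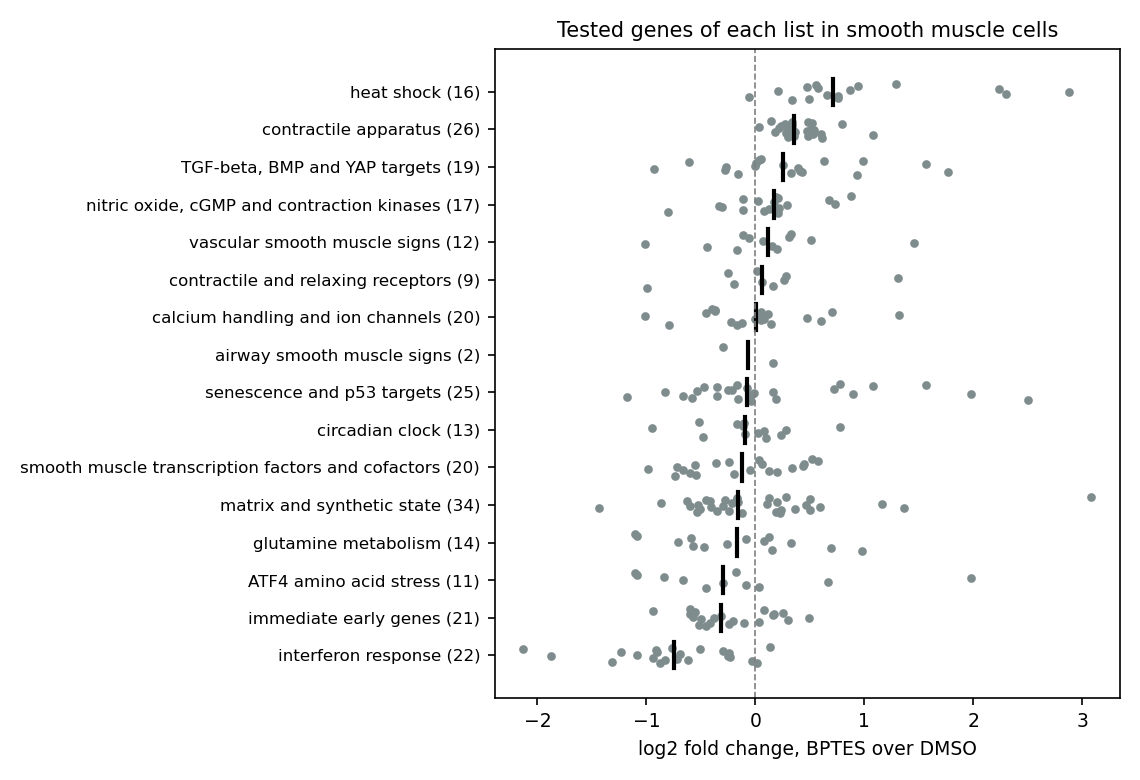
Log2 fold change of BPTES over DMSO (horizontal axis) for the tested genes of 16 lists in smooth muscle cells, with the number tested in parentheses. Each dot is a gene and each black bar the list's median. The heat shock and interferon lists have the highest and the lowest medians, 0.71 and -0.74, and the contractile list, genes that chose the members included, has a median of 0.35 that is 0.01 without DMSO replicate 1.

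The regulators of the contractile set showed no common direction. Of 20 tested transcription factors and cofactors 9 were higher and 11 lower, with a median of -0.12 that was -0.08 without DMSO replicate 1. Myocd was at 735 and 855 CPM with BPTES and at 506 and 671 CPM with DMSO, without overlap, a log2 fold change of 0.43 (edgeR adjusted p = 0.945), and 0.25 to 0.68 with 1 DMSO library left out. Nr4a1, an orphan nuclear receptor that is also an immediate early gene, was at 976, 673, 1388 and 1027 CPM. It was lower in both BPTES libraries, with a log2 fold change of -0.55 (edgeR adjusted p = 0.945), which was -0.32 without DMSO replicate 1 and -0.30 without BPTES replicate 2.

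Calcium channels and receptors showed no common direction. Of 20 calcium handling and channel genes tested 10 were higher and 10 lower, with a median of 0.01. The median was -0.20, with 9 of 23 higher, without DMSO replicate 1. Cacna1c, the L-type calcium channel that starts contraction, overlapped at 2014, 1471, 1670 and 2398 CPM. Of the receptors 9 of 24 could be tested, with 6 higher and a median of 0.06. Without DMSO replicate 1 this turned, with 2 of 10 higher and a median of -0.30. Ednra, the endothelin A receptor of vascular muscle, overlapped at 369, 300, 318 and 446 CPM. Adra1a, an adrenergic receptor that constricts arteries, was lower in both BPTES libraries, at 93.2 and 75.1 CPM against 112 and 217 CPM, a log2 fold change of -0.99 (SE 0.356, edgeR adjusted p = 0.945). Without DMSO replicate 1 it was -1.38, and without DMSO replicate 2 it was -0.41. As plain CPM, Adra1a was also lower in both BPTES libraries in set-aside cells, in pericytes and in all other kept barcodes. In those other kept barcodes it was at 101.2 and 100.6 CPM with BPTES and at 199.7 and 131.7 CPM with DMSO. Its level in the members was above theirs in 1 of 4 libraries.

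In the list of cyclic GMP signalling and kinases that sustain contraction 12 of 17 genes were higher and 5 lower, with a median of 0.17. Leaving out DMSO replicate 1 gave 10 of 18 higher and a median of 0.12. Rock2, a kinase that keeps myosin active, was at 1264 and 1494 CPM with BPTES and at 707 and 792 CPM with DMSO, a log2 fold change of 0.88 (SE 0.233, edgeR adjusted p = 0.915). It was above 0 in every fit made, between 0.58 and 1.03, and passed the threshold in none. Its log2 fold change in pericytes was 0.08, and the difference between the classes had an edgeR adjusted p of 1. Prkg1, the kinase that cyclic GMP activates, overlapped at 2664, 2076, 2257 and 2400 CPM.

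Of the 12 vascular signs tested 7 were higher and 5 lower, with a median of 0.11. This turned to 6 of 14 higher and a median of -0.15 without DMSO replicate 1. Notch3 overlapped at 543, 278, 363 and 483 CPM, with a log2 fold change of -0.05. Mustn1 was at 1963, 1532, 972 and 1483 CPM, a log2 fold change of 0.51, and 0.24 to 0.86 with 1 DMSO library left out. Map3k7cl was at 225 and 213 CPM with BPTES and at 36.3 and 119 CPM with DMSO, a log2 fold change of 1.45 (SE 0.453, edgeR adjusted p = 0.945), and 0.89 without DMSO replicate 1 and 2.60 without DMSO replicate 2. Chrm2 and Hpse2, the only airway list genes that could be tested, both overlapped, with log2 fold changes of 0.16 and -0.30, and of 0.20 and -0.69 without DMSO replicate 1. With each library left out in turn Chrm2 ranged from -1.38 to 1.09.

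Matrix genes had no stable direction, with 15 of 34 higher and a median of -0.16 over all members. Without DMSO replicate 1, 25 of 34 were higher, with a median of 0.22 and 7 called, against 1.21% of all genes. In members with at least 3 of the 4 contractile genes 26 of 34 were higher (median 0.37), and without members with signs of other cell types 27 of 34 (median 0.32), with 0 (0%) called over all genes in both. Mgp, an inhibitor of calcification of the vessel wall, overlapped at 4190, 10640, 13320 and 6477 CPM, and Thbs1, thrombospondin 1, was at 2117, 2483, 1148 and 2105 CPM. Smoc2, a matrix protein, was at 4.05 and 0 CPM with BPTES and at 92.2 and 43.0 CPM with DMSO. In DMSO replicate 2 all Smoc2 UMIs came from 1 cell, and DESeq2 but not edgeR called it (edgeR adjusted p = 0.336).

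Of 19 tested genes of TGF-beta, BMP and YAP signalling 13 were higher, 7 of them (36.8%, against 16.7% of all genes) without overlap, and the median was 0.25. It was 0.08, with 11 of 19 higher, without DMSO replicate 1, and 0.10, with 10 of 19 higher, without BPTES replicate 2. Ctgf, a matricellular growth factor and YAP target, was at 1868 and 1660 CPM with BPTES and at 170 and 857 CPM with DMSO, a log2 fold change of 1.77 (SE 0.607, edgeR adjusted p = 0.945), and 1.05 without DMSO replicate 1 and 3.39 without DMSO replicate 2. Tgfb2, the ligand TGF-beta 2, was at 555, 468, 360 and 301 CPM, with 63.6% and 59.2% of its DMSO UMIs in 1 cell of each library. Without the richest cell of each library Tgfb2 was at 436, 422, 131 and 123 CPM, still without overlap. Cyr61, another YAP target, was at 1546, 1292, 846 and 1262 CPM. These 3 were higher in both BPTES libraries, with DMSO replicate 1 the lowest library for Ctgf and Cyr61 and DMSO replicate 2 for Tgfb2.

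Genes of glutamine metabolism were read next. Glul, glutamine synthetase, was at 107, 110, 237 and 123 CPM, lower in both BPTES libraries, a log2 fold change of -0.71 (SE 0.343, edgeR adjusted p = 0.945). This rested on DMSO replicate 1, and without it the value was -0.16. Glud1, which oxidises glutamate, was at 178, 147, 120 and 137 CPM, and the glutamine carrier Slc38a2 overlapped at 259, 333, 377 and 172 CPM. Of 14 tested genes of glutamine metabolism 6 were higher and 8 lower, with a median of -0.17. This also turned without DMSO replicate 1, to 12 of 17 higher and a median of 0.10. Of 11 tested genes of the ATF4 amino acid stress response 8 were lower and 3 higher, with a median of -0.30 that was -0.07 without DMSO replicate 1. This turned in members with at least 3 of the 4 contractile genes, to 8 of 11 higher and a median of 0.17. Over all members Atf3 was at 737, 718, 1112 and 882 CPM.

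Of 25 tested senescence and p53 genes 9 were higher and 16 lower, with a median of -0.08. Without DMSO replicate 1, 13 of 26 were higher, the median was -0.01 and 6 were called, against 1.21% of all genes. Cdkn1a, the cell cycle inhibitor p21, overlapped at 263, 286, 165 and 315 CPM. Cxcl1, a neutrophil chemokine, was at 519 and 354 CPM with BPTES and at 1310 and 667 CPM with DMSO, a log2 fold change of -1.18 (SE 0.364, edgeR adjusted p = 0.945), and -0.61 without DMSO replicate 1. Igfbp7, an insulin-like growth factor binding protein of vessels, overlapped at 2551, 3021, 2854 and 3032 CPM. Immediate early genes, which any stimulus including tissue handling can raise, were lower in 14 of 21, with a median of -0.32 that was 0.25 without DMSO replicate 1. In pericytes 3 of 20 were higher (median -0.15), and with the set-aside cells added 19 of 23 were lower (median -0.21). In members with at least 3 of the 4 contractile genes 10 of 21 were lower (median 0.01). Jun was at 1880, 1902, 3544 and 2081 CPM, Egr1 at 3142, 2837, 5102 and 2897 CPM, and Fos overlapped at 4662, 4152, 4968 and 3642 CPM. DMSO replicate 1 was the high library for all 3. Of 13 tested clock genes 6 were higher and 7 lower, with a median of -0.10 that was 0.16 without DMSO replicate 1, and Rora overlapped at 820, 659, 930 and 663 CPM.

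Among the genes that edgeR did not call, and apart from those that chose the members, the genes with the lowest unadjusted p whose groups did not overlap were Hspa1b, Pcdh11x, Hspa1a, Abra, Nkain2, Ccl11, Plcxd3, Lrrc32, Tnfrsf12a and Olfr1033 on the higher side, and Col23a1, Ifi207, Smoc2, Sp100, Fam13a, Colec11, Ifi47, Adap2, Lin7a and Fads2 on the lower side. DESeq2 called Hspa1b, Pcdh11x, Hspa1a and Smoc2 of these. Of the genes that chose the members, Hhip was lower at 0 and 15.9 CPM against 229 and 196 CPM, with all its DMSO UMIs in 1 cell of each library. Some of these were found in many members and some in few cells. Pcdh11x, a protocadherin, was at 158 and 67.2 CPM with BPTES and at 8.38 and 2.05 CPM with DMSO, with UMIs in 5, 6, 1 and 1 members. Tnfrsf12a, the receptor of the cytokine TWEAK, was at 114 and 293 CPM with BPTES and at 27.9 and 55.2 CPM with DMSO, with UMIs in 14, 45, 6 and 12 members, a log2 fold change of 2.28 (SE 0.520, edgeR adjusted p = 0.915), and 1.41 without BPTES replicate 2. Abra, an activator of SRF in muscle, was at 66.9, 179, 11.2 and 22.5 CPM in 10, 17, 3 and 6 members, a log2 fold change of 2.85 (SE 0.584, edgeR adjusted p = 0.743). Lrrc32, which holds latent TGF-beta at the cell surface, was at 132, 128, 25.1 and 55.2 CPM in 18, 38, 7 and 11 members. The Abra UMIs were few with DMSO, and 2 of 4 and 6 of 11 of them came from 1 cell of each library. Other genes sat almost wholly in single cells: 99.1% of the Ccl11 UMIs and 100% of the Plcxd3 UMIs of BPTES replicate 1 were in 1 cell, and so were 95.7% and 90.9% of the Lin7a UMIs of the DMSO libraries. On the lower side, Sp100, a nuclear body protein that interferon induces, was at 50.6 and 39.8 CPM with BPTES and at 131 and 121 CPM with DMSO, with UMIs in 12, 23, 10 and 17 members, a log2 fold change of -1.50 (SE 0.290, edgeR adjusted p = 0.743). As plain CPM, Sp100 was also lower in both BPTES libraries in pericytes, at 126 and 93.6 against 146 and 137. The same held in all other kept barcodes, at 210 and 172 against 244 and 243. In set-aside cells Sp100 overlapped between groups. Fads2, a fatty acid desaturase, was at 32.4, 30.1, 64.2 and 117 CPM in 12, 17, 9 and 16 members.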

How the data were processed

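Single-cell libraries of mouse lung were made with the GEM-X 3′ v4 chemistry, per the labels' protocols. The deposited matrices hold whole-number UMI counts per gene and barcode; the submitters' processing notes name Cell Ranger 8.0.1 and mm10, and the filters behind the matrices are not given in the sources used here. Barcodes were kept and members chosen as the report states; no doublet caller was run, and members with RNA of other cell types were left out as alternatives. The members and the 16 gene lists were chosen with earlier results of these data known.

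Member counts were summed per library. The test was the quasi-likelihood one of edgeR 4.0.16, run under R 4.3.3, after its filterByExpr and TMM steps, treatment being the only term, with Benjamini-Hochberg adjustment over all genes tested and a threshold of 0.05. The fit against pericytes had class, its interaction with treatment, and library as terms. Tests were two-sided, and p-values measure the spread between libraries, which may be technical. Each SE was worked back from the test, as the absolute log2 fold change divided by the square root of the F statistic. Shares were compared by an exact permutation test. Python 3.11.15 with numpy 2.4.6, scipy 1.17.1 and pandas 2.3.3 read the matrices. Tested on simulated counts of the members' comparison (7148 genes), the fit called 97 of 100 genes changed 4-fold, 100 of 100 changed 16-fold and 7 of 6948 unchanged genes. The simulated counts had 1 dispersion, 0.059, for all genes, which the measured genes need not share. In the measured counts, Hspa1b, Pcdh11x and Ifi207 had log2 fold changes of 2.88, 4.46 and -4.565 and were not called by this fit. Their edgeR adjusted p were 0.287, 0.336 and 0.287, while Rgs16, at -4.47, was called. How often the fit calls such changes in measured counts was not tested. Alternatives were DESeq2 1.42.0 and its size factors, no filter on low counts, a replicate block, each library left out, and other membership rules.

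Genes were named by a rule: the 13 genes that chose the members; called genes; where fewer than 5 were called in a direction, the 10 with the lowest unadjusted p outside those 13, a mean of at least 20 CPM and groups that do not overlap; the 4 most abundant members of each list; and single genes that include Glul, Notch3, Chrm2, Chrm3, Cdkn1a and Cdkn2a. Of these Chrm3 and Cdkn2a were too low to be tested, and some abundant members are left out of the text for length. Genes of the class description, and list members with an unadjusted p under 0.05 such as Map3k7cl, Isg15, Rtp4 and Iigp1, were named after their values were seen. Some results on single genes are not reported here.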

Additional observations from a re-analysis of the deposited data

How the results depend on the processing

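The count of called genes, 1, was the same with DESeq2's size factors, the mitochondrial limit of 5% and without members with 20 or more UMIs of other cell lists. It was 5 with DESeq2, 140 with no filter on low counts and 5 (Rgs16, Hhip, Col23a1, Ccl7 and Hspa1b) with Acta2 at 10 or more per 10000 UMIs. It was 0 with 3 or more of Myh11, Cnn1, Actg2 and Des, 0 with no limit on the 5 airway genes, 0 without members with signs of other cell types and 0 (of 491 genes tested) without members with 2 or more UMIs of other cell lists, which left 2, 3, 10 and 1 cells. Leaving out 1 library gave 56 to 186 calls (74 without BPTES replicate 1, 56 without BPTES replicate 2, 99 without DMSO replicate 1 and 186 without DMSO replicate 2), with the lone library assumed to vary like the others, and Rgs16 was among them each time. The replicate numbers mark no stated litter, batch or day, and the deviations of same-numbered libraries correlated at -0.115. With the number as a replicate block 2 genes, Rgs16 and Gm26870, were called. The difference from pericytes gave 0 calls in the fit reported and with DESeq2's size factors, 94 with no filter and 0 to 57 with 1 library left out (57 without DMSO replicate 1, 3, Mndal, Cxcl2 and Ednrb, without DMSO replicate 2). The difference in the share of smooth muscle cells, 0.106 percentage points, was -0.0198 without members with 2 or more UMIs of other cell lists, and 0.01704 to 0.194 with 1 library left out. The cause of these changes was not tested, beyond the fewer samples or genes of a fit. The limits on members with 20 UMIs or with signs of other types were chosen after seeing the data.

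Log2 fold changes of single genes that were not called changed sign under some settings. With each library left out in turn they ranged from -0.46 to 0.0764 for Cacna1c, from -0.19 to 0.76 for Cdkn1a, from -1.38 to 1.09 for Chrm2, from -0.41 to 0.084 for Ednra, from -0.75 to 0.0515 for Egr1, from -0.15 to 0.28 for Fos, from -0.69 to 0.28 for Hpse2, from -0.63 to 0.76 for Hspa5, from -0.20 to 0.072 for Igfbp7, from -1.24 to 0.21 for Mgp, from -0.57 to 0.36 for Notch3, from -0.13 to 0.20 for Prkg1, from -0.32 to 0.16 for Rora, from -0.32 to 0.80 for Slc38a2. With no limit on airway genes they were 0.0848 for Cacna1c, -0.42 for Cdkn1a, -0.21 for Fos, 0.18 for Igfbp7, 1.41 for Isg15, 0.26 for Notch3, -0.13 for Thbs1. With the replicate block it was -0.0855 for Chrm2. With 3 or more of the 4 contractile genes they were -0.42 for Chrm2, -0.0795 for Myocd, -0.24 for Prkg1. Without members with 2 or more UMIs of other cell lists they were -1.18 for Ctgf, -0.26 for Cyr61, 0.10 for Egr1, -0.00767 for Fos, 0.62 for Hpse2, -0.24 for Hspa5, -0.25 for Mustn1, -0.19 for Myocd, -0.80 for Prkg1, -0.54 for Tagln. With the Acta2 limit per 10000 UMIs they were 0.0546 for Igfbp7, -0.19 for Prkg1, 0.00731 for Rora. Without members with 20 or more such UMIs they were 0.00698 for Igfbp7, -0.0651 for Prkg1. Without members with signs of other types they were 0.0696 for Jun, -0.0844 for Prkg1, 0.21 for Rora. Of the other values of single genes under alternatives, 752 kept direction and side of the threshold, 93 passed it and 1 no longer did, Rgs16 with no airway limit at -2.53. With 22 to 55 cells per library, genes under about 20 CPM rest on few UMIs.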
